A study of Ovis aries with 7 samples.

Results

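The striatal neuropeptides examined here were the products of 8 genes: TAC1, PDYN, PENK, NTS, SST, NPY, CCK and CORT. They were found by gene symbol among the 26479 features of the count tables, where each symbol matched 1 feature. The data were unique molecular identifier (UMI) counts of single nuclei from sheep striatum, with 3 OVT73 and 4 control libraries. OVT73 sheep carry a full-length human HTT cDNA with an expanded CAG repeat, driven by a human HTT upstream segment, and serve as a model of Huntington's disease before overt symptoms. The controls were wild-type for the transgene, and all animals were 5 years old. Every OVT73 library and control libraries 3 and 4 pooled the nuclei of 2 sheep, whereas control libraries 1 and 2 held 1 sheep each. No treatment was given. The library was the unit of replication, because pooled sheep were not separated here.

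Neuropeptides are cut from larger precursor proteins, packed into dense-core vesicles and released to act on G protein-coupled receptors. In the striatum the projection neurons, called medium spiny neurons (MSNs), divide into a D1 class of the direct pathway, which makes substance P and dynorphin, and a D2 class of the indirect pathway, which makes enkephalin. Small populations of interneurons make somatostatin, neuropeptide Y and cholecystokinin. Peptide genes are therefore classical labels of striatal cell types, and loss of enkephalin and substance P is well known from the striatum of patients with Huntington's disease.

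The libraries held 20887378 to 70473426 UMIs in 3277 to 8815 barcodes. After quality control and removal of likely doublets 32602 nuclei were kept, 17441 OVT73 and 15161 control. Any 2 libraries shared between 1 and 19 barcode sequences. The added human HTT feature had 0.984 to 4.78 CPM (UMIs of the gene per 1000000 UMIs) in OVT73 libraries and 0.0444 to 0.224 CPM in control libraries, so that the groups did not overlap. Of 29 clusters made without the 8 genes, those named by marker transcripts gave 2601 D1 MSN-like, 2260 D2 MSN-like and 316 eccentric MSN-like nuclei. The interneurons comprised 280 PV/Th-like, 107 SST/NPY-like and 58 cholinergic-like nuclei. DRD1 was not analysed here, and the D1 name rests on other genes such as EBF1, at 175 CPM in the D1 and 3.22 CPM in the D2 class. DRD2 was at 3.59 CPM in the D1 class and 47.0 CPM in the D2 class. CHAT reached 444 CPM in cholinergic-like nuclei, and NOS1 reached 1094.4 CPM in SST/NPY-like nuclei. The tissue thus held the defining neurons of the striatum by these markers.

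Droplets also capture free RNA, and the strongest peptide genes were found at low levels in every glial class. SST, for example, gave 0.221 UMIs per nucleus in oligodendrocyte-like, 0.205 in microglia-like, 0.228 in OPC-like and 0.213 in astrocyte-like nuclei. NPY gave 0.0917 to 0.0971 and CORT 0.0111 to 0.0141 UMIs per nucleus over these glial classes. A like low level in unrelated cell types was taken as background, and each neuronal level is given beside that of the 18067 oligodendrocyte-like and microglia-like nuclei. Free RNA enters droplets irrespective of the depth of a nucleus, so UMIs per nucleus were used for this comparison. Classes were compared as a description only, since clusters were made from the same nuclei.

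**Figure D1:**
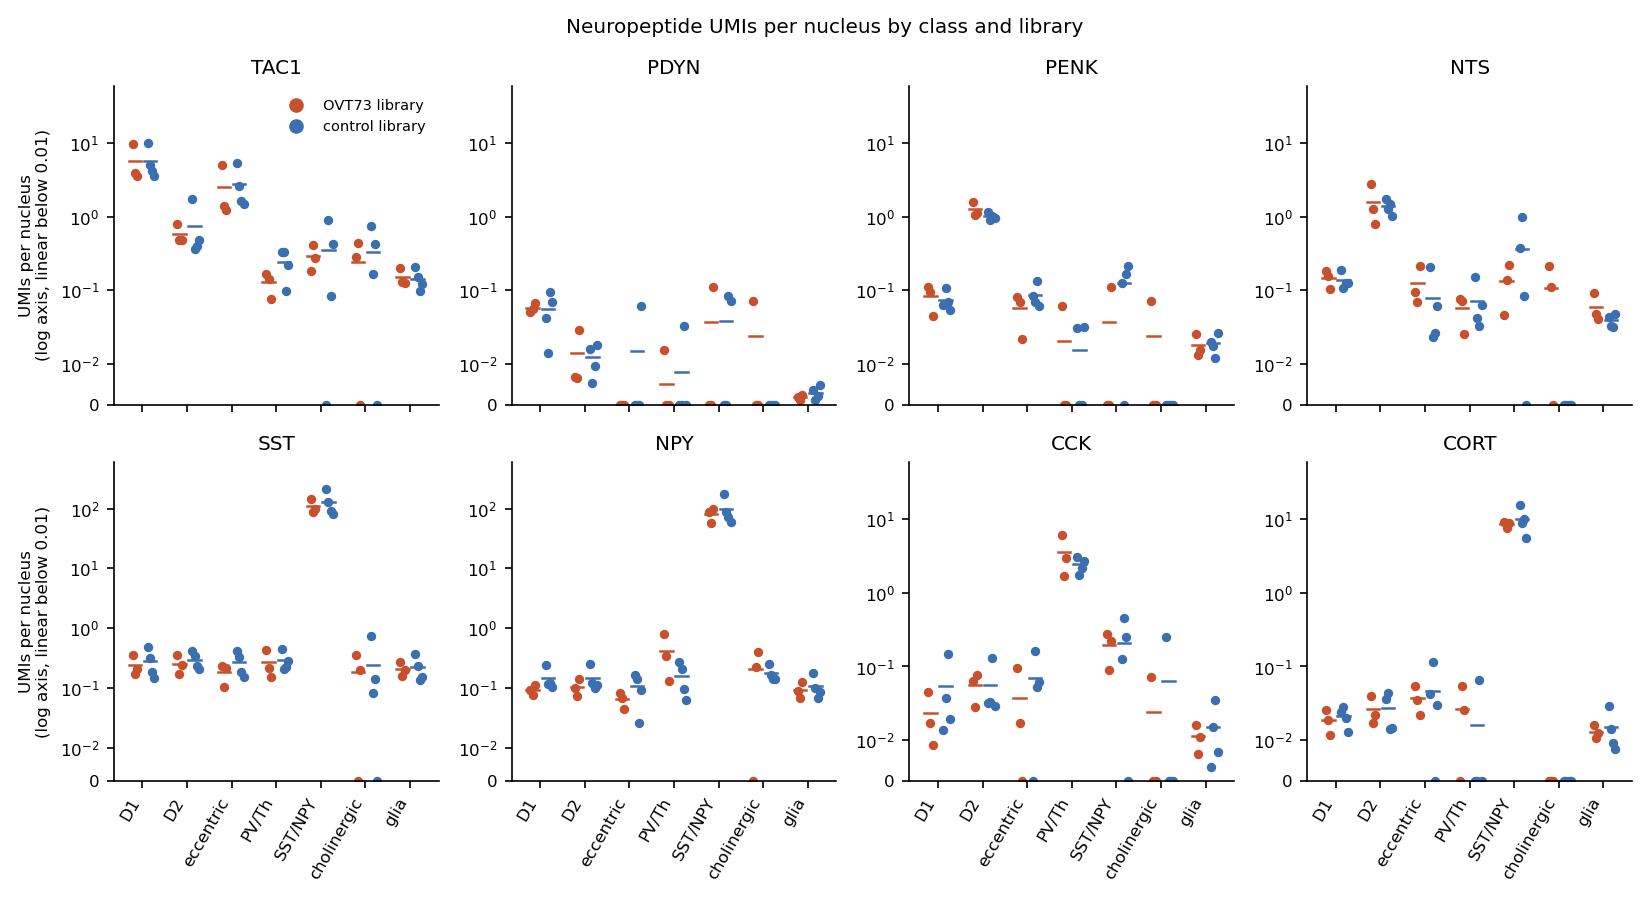
Each panel shows 1 gene, with UMIs per nucleus on a logarithmic axis (linear below 0.01) for 6 neuron classes and for oligodendrocyte-like and microglia-like nuclei together (glia). Points are libraries (3 OVT73, 4 control) and bars are group means; each gene stood far above glia in 1 or 2 classes, and the colours overlapped there.

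TAC1 (ENSOARG00020000198), which encodes the precursor of substance P and neurokinin A, was the peptide gene of D1 MSN-like nuclei. These nuclei held 7.98% of all nuclei kept but 66.0% of the 23258 TAC1 UMIs. TAC1 was at 9.89, 3.97 and 3.55 UMIs per nucleus in OVT73 libraries 1 to 3 and at 9.94, 5.01, 4.13 and 3.55 in control libraries 1 to 4. One library of each group therefore lay far above the rest, and the groups overlapped completely. The level in D1 MSN-like nuclei was 28.4 to 49.3 times that of glia in the same library. Of the 2601 nuclei, 89.3% held at least 1 TAC1 UMI, with a median of 4.0 and a highest count of 89. The share in oligodendrocyte-like nuclei was 12.7%, at a median depth of 1768 UMIs against 22223 UMIs in D1 MSN-like nuclei.

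Eccentric MSN-like nuclei, a small MSN population marked by OTOF and FOXP2, were second for TAC1 with 2.67 ± 1.77 UMIs per nucleus (SD, n = 7 libraries). D1 MSN-like nuclei were above them in 7 of 7 libraries, and they were above D2 MSN-like nuclei in 7 of 7 libraries. Libraries spread alike in both classes: the highest TAC1 levels of eccentric MSN-like nuclei, 5.33 and 5.03, came from control library 1 and OVT73 library 1, the same libraries as in D1. Glial TAC1 was also highest in these libraries, with 0.205 and 0.200 UMIs per nucleus against 0.0983 to 0.151 in the others. In eccentric MSN-like nuclei TAC1 was uneven, since 54.1% held a UMI and 21 nuclei with 10 or more UMIs gave 50.3% of the class total. Below these classes the order was not resolved: SST/NPY-like, cholinergic-like and PV/Th-like nuclei, with 0.327, 0.296 and 0.196 UMIs per nucleus, were each above the next in only 3 or 4 of 7 libraries.

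D2 MSN-like nuclei had 0.679 ± 0.493 TAC1 UMIs per nucleus (SD, n = 7), 2.40 to 8.55 times the glial level. Much of this came from few nuclei. The 30 nuclei with 10 or more TAC1 UMIs, a limit chosen after the values were seen, gave 45.1% of the TAC1 UMIs of the class, and 14 of them were in control library 1. They averaged 23.3 TAC1 and 0.433 PENK UMIs, whereas the remaining 2230 nuclei averaged 0.381 TAC1 and 1.2 PENK UMIs. EBF1 was at 39.5 CPM in the TAC1-rich nuclei and 2.47 CPM in the others, and DRD2 was at 9.86 and 44.3 CPM. The TAC1-rich nuclei therefore had more of a D1 marker and less of a D2 marker than the rest of their class. Pooled D1 MSN-like nuclei had 178 CPM of EBF1 and 2.99 CPM of DRD2, so the TAC1-rich nuclei lay in between for both genes. RELN, a D1 marker, was at 802 CPM in TAC1-rich, 489 in other D2 and 968 in D1 nuclei. GRIK3, a D2 marker, was at 78.9, 267 and 39.5 CPM in the same order. ADORA2A, also a D2 marker, was at 0, 8.54 and 0.374 CPM in the same order. With only 30 TAC1-rich nuclei, the value of 0 cannot be told apart from the low level of D1 nuclei. Without the TAC1-rich nuclei control library 1 fell from 1.75 to 0.534 TAC1 UMIs per nucleus, and the libraries spanned 0.320 to 0.534. These nuclei were left out for their TAC1 counts, so a fall was built in and nothing is concluded from it.

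PDYN (ENSOARG00020008816), which encodes the dynorphin precursor, was the sparsest of the 8 genes, with 277 UMIs in all nuclei kept. D1 MSN-like nuclei held 54.2% of them. The level there was 0.0504, 0.0561 and 0.0680 UMIs per nucleus in OVT73 libraries 1 to 3 and 0.0414, 0.0140, 0.0960 and 0.0703 in control libraries 1 to 4, so that the lowest and the highest values were both controls. In glia the level was 0.00241 ± 0.00130 (SD, n = 7), and D1 MSN-like nuclei were above it in 7 of 7 libraries, by 11.6 to 47.7 times. Only 140 of the 2601 nuclei (5.38%, 95% Wilson interval 4.58 to 6.32%) held a PDYN UMI, and none held more than 3. The interval covers counting error only. In oligodendrocyte-like nuclei the share was 0.218%. D2 MSN-like nuclei had 0.0131 ± 0.00870 PDYN UMIs per nucleus (SD, n = 7), 3.8 to 12.2 times the glial level. In eccentric, PV/Th-like, SST/NPY-like and cholinergic-like nuclei the total was between 1 and 4 UMIs, from far fewer nuclei. Of the 107 SST/NPY-like nuclei 3.74% held a PDYN UMI. Per nucleus, the D1 class was above the SST/NPY-like class in 5 of 7 libraries, with overlapping ranges.

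In D1 nuclei of many mammals dynorphin marks the striosomes, patches of the striatum that are rich in the mu opioid receptor, more than the surrounding matrix. Nuclei with and without a PDYN UMI were therefore compared for fixed lists of striosome and matrix genes, after thinning every nucleus to 5000 UMIs. OPRM1, the mu opioid receptor, was detected in 52.1% of 140 nuclei with PDYN (95% Wilson interval 43.9 to 60.2%) and in 41.6% of 2440 nuclei without (39.7 to 43.6%). The share was higher in nuclei with PDYN in 6 of 7 libraries. EPHA4, an ephrin receptor and matrix marker, was detected in 55.7% (47.4 to 63.7%) and 71.2% (69.4 to 73.0%) of these nuclei, and was higher with PDYN in 0 of 7 libraries. These intervals pool nuclei of all libraries and cover counting error only. The counts of libraries rest on few nuclei with PDYN, from 3 in control library 2 to 32 in OVT73 library 2. The other 9 markers had overlapping intervals. KREMEN1 and BACH2 were at 7.14% and 20% with PDYN and at 4.18% and 15.1% without. SEMA5B, another striosome marker, was at 2.86% and 5.66%. KCNIP1, also on the striosome list, was at 22.9% with PDYN and 21% without, and was higher with PDYN in 3 of 7 libraries. The 5 further matrix markers, STXBP6, GDA, SV2B, CRYM and CALB1, were at equal or lower pooled shares with PDYN. The gap was small for CRYM (14.3% with PDYN and 15% without) and SV2B (40% and 40.5%). CRYM was higher with PDYN in 4 of 7 libraries, SV2B in 3, STXBP6 and GDA in 2 each and CALB1 in 1. Nuclei with PDYN also averaged more TAC1 at the same depth, 2.26 against 1.32 thinned UMIs per nucleus, in 6 of 7 libraries. Nuclei with a PDYN UMI had a median of 23765 UMIs before thinning, and those without had 22142. When PDYN was also called after thinning, OPRM1 was at 65.6% in 32 nuclei with PDYN and 41.9% without, and EPHA4 was at 46.9% and 70.6%. These 32 nuclei were few and unevenly spread over libraries. PDYN was then detected in 4.35% of D1 MSN-like nuclei in control library 3 and in 0.324 to 2.13% in the others.

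**Figure D2:**
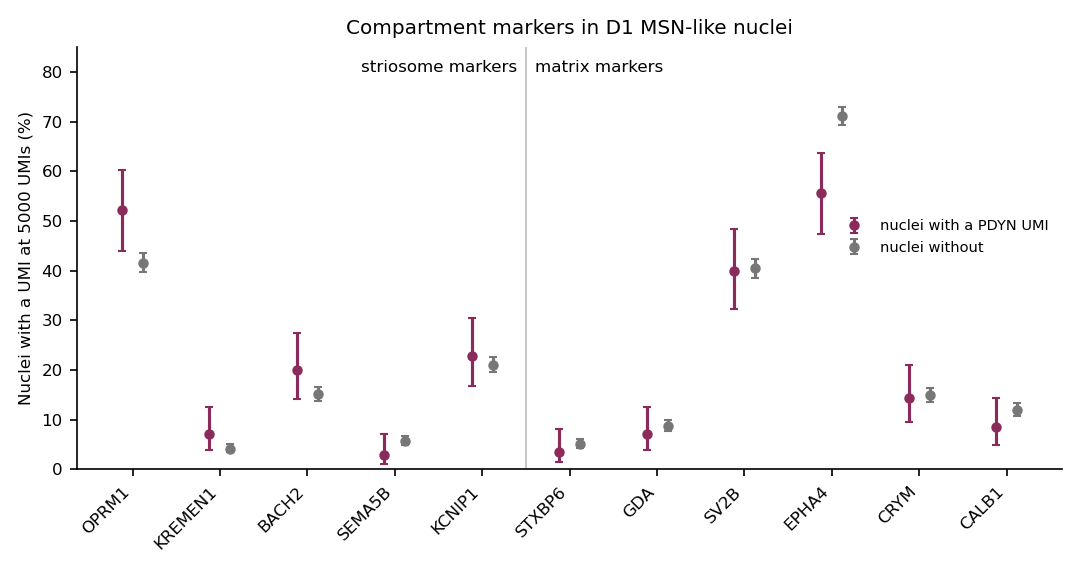
Share of D1 MSN-like nuclei (%) with a UMI of each striosome or matrix marker after thinning to 5000 UMIs, in 140 nuclei with and 2440 nuclei without a PDYN UMI; bars are 95% Wilson intervals. OPRM1 was higher and EPHA4 lower in nuclei with PDYN, and the intervals of the other 9 markers overlapped. The intervals pool nuclei of all libraries and cover counting error only.

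PENK (ENSOARG00020025573), which encodes the enkephalin precursor, was concentrated in D2 MSN-like nuclei, which held 73.0% of its 3693 UMIs. The level was 1.6, 1.05 and 1.12 UMIs per nucleus in OVT73 libraries 1 to 3 and 1.16, 0.892, 1.02 and 0.974 in control libraries 1 to 4. It was 37.4 to 84.7 times the glial level, and in every library the level in D2 MSN-like nuclei was above the highest level found in any other named neuron class. PENK was detected less often in its main class than TAC1 in its own, at a lower level per nucleus. Of 2260 nuclei 51.4% held a PENK UMI, against 1.82% of oligodendrocyte-like nuclei. Of the 2 clusters that formed the class, the larger had 1.22 ± 0.254 PENK UMIs per nucleus and the smaller, 212 nuclei led by ZNF804A and HS3ST4, had 0.197 ± 0.228 (SD, n = 7 each). D1 MSN-like nuclei had 0.0775 ± 0.0264 PENK UMIs per nucleus (SD, n = 7), 2.08 to 7.29 times glia. In OVT73 library 2 a single D1 nucleus held 24 of the 56 PENK UMIs of the class.

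NTS (ENSOARG00020007471), which encodes neurotensin and neuromedin N, followed PENK. D2 MSN-like nuclei held 62.4% of its 5966 UMIs, with 2.75, 1.27 and 0.803 UMIs per nucleus in OVT73 libraries 1 to 3 and 1.77, 1.26, 1.47 and 1.03 in control libraries 1 to 4. The OVT73 libraries held both the highest and the lowest value. The level was 20 to 46.9 times that of glia, whereas in D1 MSN-like nuclei, at 0.142 ± 0.0357 UMIs per nucleus, it was 2.04 to 4.35 times that of glia. In OVT73 library 2 a single D1 nucleus held 57 of the 93 NTS UMIs of its class. The D2 class was uneven: 44.2% of nuclei held an NTS UMI, and the 63 nuclei with 10 or more gave 45.2% of the class total. As with PENK, the smaller D2 cluster was lower, with 0.457 ± 0.25 against 1.59 ± 0.68 UMIs per nucleus in the larger one (SD, n = 7 each).

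PENK and NTS overlapped more often than expected from their separate shares. After thinning to 5000 UMIs, 124 of 2235 D2 MSN-like nuclei held both transcripts, against 76.1 expected from the product of the shares within each library. The observed number was above the expected one in 7 of 7 libraries, and NTS was detected in 29.3% of nuclei with PENK and in 15.5% of those without. Within the larger cluster alone, an analysis added after the values were seen, 120 nuclei held both against 77.9 expected. TAC1 and PENK in D2 MSN-like nuclei were not above expectation, with 29 nuclei against 33.9, and TAC1 and NTS had 40 against 32.9. In D1 MSN-like nuclei TAC1 and PDYN were found together in 21 nuclei against 18.3 expected, and TAC1 and NTS in 26 against 34.8.

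The projection classes separated by their peptide transcripts although neither gene was used to make them. In D1 MSN-like nuclei 88.5% held more TAC1 than PENK UMIs and 1.38% the reverse. In D2 MSN-like nuclei 44.6% held more PENK and 13.6% more TAC1, and 37.3% held neither. Counts of different genes also depend on how well each transcript is captured, so only the shift between classes is read here. The share with more TAC1 was 83.4 to 96.2% over the libraries in D1 and 11.7 to 20.6% in D2, and the highest D2 share was again in control library 1. Eccentric MSN-like nuclei resembled D1 in direction, with 53.2% holding more TAC1 and 1.58% more PENK, but 44.3% held neither.

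**Figure D3:**
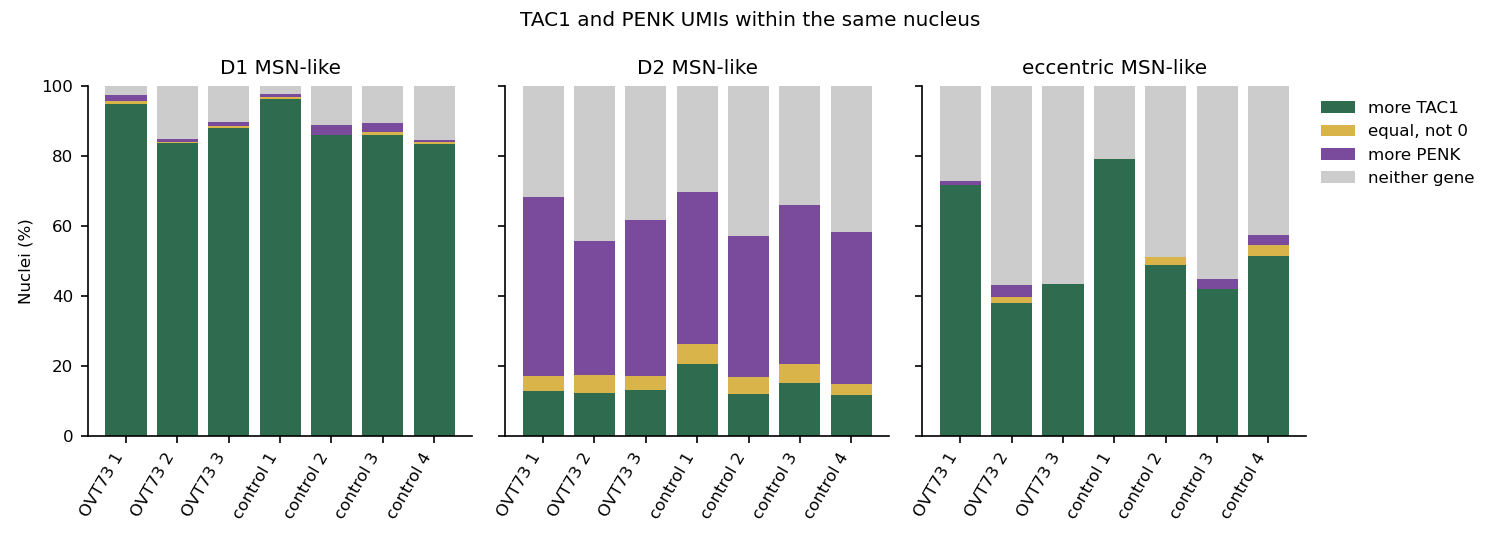
Stacked bars give, for each library, the share of nuclei (%) with more TAC1 than PENK UMIs, equal counts above 0, more PENK, or neither gene, in 3 MSN classes. D1 bars are mostly TAC1 (83.4 to 96.2%), and eccentric bars are split between TAC1 and neither. In D2 bars the share with more PENK (38.5 to 51.3%) exceeds that with more TAC1 (11.7 to 20.6%). Neither gene is the largest D2 share in OVT73 library 2 (44.2%) and control library 2 (42.7%).

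SST (ENSOARG00020000243) and NPY (ENSOARG00020000795), the precursors of somatostatin and neuropeptide Y, were concentrated in few nuclei. The 107 SST/NPY-like nuclei made up 0.328% of nuclei but held 56.6% of 21533 SST UMIs and 65.6% of 13766 NPY UMIs. The class was named from NOS1, CHODL and other genes without SST or NPY. SST was at 144, 87.5 and 98.3 UMIs per nucleus in OVT73 libraries 1 to 3 and at 213, 128, 92.3 and 80.1 in control libraries 1 to 4. NPY was at 88.2, 57.5 and 97.7 in OVT73 and at 176, 88.2, 71.2 and 59.7 in control libraries, in the same order. Control library 1, with 8 nuclei of the class, was the highest for both, and the other controls overlapped with OVT73. SST was 489 to 678 times and NPY 708 to 1053.1 times the glial level of the same library. Single nuclei ranged widely, with a median of 78 SST and 66 NPY UMIs and a highest count of 466 and 375.

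CORT (ENSOARG00020015142), which encodes cortistatin, a relative of somatostatin that binds somatostatin receptors, was found in the same nuclei. It was at 9.27, 7.64 and 9.06 UMIs per nucleus in OVT73 libraries 1 to 3 and at 15.5, 9, 10 and 5.5 in control libraries 1 to 4, 534 to 1079.6 times glia. SST/NPY-like nuclei held 60.3% of the 1583 CORT UMIs. Of all 107 nuclei, 88 held SST, NPY and CORT, 18 held SST and NPY without CORT, and 1 held NPY alone. At 5000 UMIs the triple share was 70.9% of 103 nuclei. Within the class the genes rose together from nucleus to nucleus: over the 103 thinned nuclei Spearman's rho was 0.81 for SST and NPY, 0.77 for NPY and CORT and 0.65 for SST and CORT. These are nuclei of 7 libraries that share depth and library, and the values are descriptive; for SST and NPY rho was 0.49 to 0.98 within single libraries. No CORT UMI was seen in 58 cholinergic-like nuclei.

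In the MSN classes SST and NPY were close to the glial level. SST was at 0.233 to 0.281 UMIs per nucleus in D1, D2, eccentric and PV/Th-like nuclei, against 0.217 ± 0.0824 in glia (SD, n = 7). In D1 MSN-like nuclei SST was 0.963 to 1.39 times the glial level of the same library and NPY 0.909 to 1.81 times. In D2 MSN-like nuclei both were above glia in 7 of 7 libraries, but only by 1.09 to 1.68 times for SST and 1.07 to 1.45 times for NPY. PV/Th-like nuclei had a mean of 0.270 NPY UMIs per nucleus, but a single nucleus of OVT73 library 1 gave 34 of their 94 NPY UMIs. Single nuclei held up to 26 SST and 18 NPY UMIs in the D1 class and up to 12 and 8 in the D2 class. Whether SST and NPY in the MSN classes were background was not tested.

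CCK (ENSOARG00020021710), the cholecystokinin precursor, was the peptide gene of PV/Th-like nuclei. The level was 6.2, 1.71 and 2.97 UMIs per nucleus in OVT73 libraries 1 to 3 and 3.12, 1.75, 2.16 and 2.75 in control libraries 1 to 4, between 61.0 and 895 times glia. OVT73 library 1 was the highest by far and the other 6 libraries overlapped. PV/Th-like nuclei held 40.5% of the 2260 CCK UMIs, and 67.5% of them held a UMI against 1.32% of oligodendrocyte-like nuclei. A further 25.0% of CCK UMIs lay in 427 nuclei of a cluster that was left unnamed, led by CPNE4 and CXCL14 with VIP among its 10 leading genes. Here 22.5% of nuclei held CCK, and 14 nuclei with 10 or more UMIs gave 54.6% of the total. The level varied between libraries from 0.400 to 2.90 UMIs per nucleus, with the highest in control library 3. SST/NPY-like nuclei were next among the named classes, with 0.202 ± 0.148 UMIs per nucleus (SD, n = 7), from 21 UMIs in all.

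Cholinergic-like nuclei had few UMIs of any of the 8 genes. TAC1 gave 16 UMIs, SST 11 and NPY 9 in 58 nuclei, and the remaining genes gave between 0 and 4. With as few as 4 nuclei in a library this class was not fitted in the comparison of groups.

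OVT73 and control libraries were then compared within each neuron class on summed UMIs, with edgeR's quasi-likelihood test and Benjamini-Hochberg adjustment over all genes tested in the class. The comparison asked whether the transgene changed peptide transcripts in neurons before overt disease. Of the 8 members, 19 combinations of gene and class passed the filter on low counts: 7 in D1, 6 in D2, 2 in eccentric, 1 in PV/Th-like and 3 in SST/NPY-like nuclei. None was called at an adjusted p of 0.05, none had an unadjusted p under 0.05 in edgeR, and none had groups that did not overlap. DESeq2 called none of the 19 either. The background was low throughout: 0% of 12271 genes were called in D1, 0% of 11925 in D2, 0.0135% of 7383 in eccentric, 0% of 6682 in PV/Th-like and 0% of 4011 in SST/NPY-like nuclei. Unadjusted p-values were under 0.05 for 527, 513, 538, 374 and 125 genes in these classes. Groups did not overlap for 5.23% of genes tested in D1, 5.64% in D2, 7.68% in eccentric, 5.78% in PV/Th-like and 4.41% in SST/NPY-like nuclei. A p above the threshold does not show that levels were the same, and the 95% intervals give the changes that remain possible.

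TAC1 in D1 MSN-like nuclei was at 294, 176 and 148 normalised CPM in OVT73 libraries 1 to 3 and at 369, 215, 191 and 127 in control libraries 1 to 4. The means were 206 ± 77.6 (SD, n = 3) and 226 ± 102 (SD, n = 4), and the log2 fold change was -0.13 (SE 0.350, 95% interval -0.92 to 0.66, edgeR adjusted p = 0.969). The fold change was positive without OVT73 library 3 (0.06) and without control library 1 (0.22). For TAC1 in eccentric MSN-like nuclei the log2 fold change was -0.39 (95% interval -1.86 to 1.08), with the same order of libraries within each group.

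PDYN in the same nuclei was at 2.27 ± 0.693 normalised CPM in OVT73 (SD, n = 3) and 2.27 ± 1.64 in control libraries (SD, n = 4). The log2 fold change was -0.05 with a 95% interval of -1.21 to 1.11 (edgeR adjusted p = 0.994). The share of D1 MSN-like nuclei with a PDYN UMI, thinned to 5000 UMIs, was 1.17% in OVT73 and 1.49% in control libraries (exact permutation of library labels, two-sided p = 0.971). Without thinning the means were 5.54% and 5.05%.

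PENK in D2 MSN-like nuclei had the narrowest interval of all. It was at 48.3, 47.7 and 44.5 normalised CPM in OVT73 libraries 1 to 3 and at 43.9, 39.9, 47.3 and 37.2 in control libraries 1 to 4. Only control library 3 lay within the OVT73 range. The log2 fold change was 0.16 (SE 0.123, 95% interval -0.12 to 0.43, edgeR adjusted p = 0.927), and 0.05 to 0.22 over all alternative fits. The share of nuclei with a PENK UMI gave no stable direction: at 5000 UMIs it was 17.8% in OVT73 and 21.7% in control libraries (exact permutation of library labels, two-sided p = 0.286), while without thinning it was 51.4% and 50.1%. In D1 MSN-like nuclei PENK was at 3.11 and 3.02 normalised CPM, a log2 fold change of 0.10 (95% interval -0.76 to 0.96). Of the 211 PENK UMIs of that class, 24 came from 1 nucleus of OVT73 library 2.

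NTS in D2 MSN-like nuclei was at 57.5 ± 25.5 normalised CPM in OVT73 (SD, n = 3) and 57.6 ± 13.3 in control libraries (SD, n = 4). The single libraries gave 82.7, 57.9 and 31.8 in OVT73 and 66.8, 56.3, 68.0 and 39.3 in control, so that the spread of OVT73 libraries exceeded that of controls. The log2 fold change was 0.01 with a 95% interval of -0.67 to 0.69 (edgeR adjusted p = 0.998). In the same nuclei TAC1 was at 66.3 normalised CPM in control library 1 and between 16.2 and 23.7 in the others. The log2 fold change was -0.47 (95% interval -1.57 to 0.63), and it was 0.30 without control library 1, where 14 of the TAC1-rich nuclei described above were found.

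In SST/NPY-like nuclei SST was at 6739.0 ± 1167.7 normalised CPM in OVT73 (SD, n = 3) and 7349.8 ± 2408.7 in control libraries (SD, n = 4). NPY was at 4948.4 ± 617.0 and 5617.5 ± 2144.1, and CORT at 537 ± 36.7 and 576 ± 171. The log2 fold changes were -0.12 (95% interval -0.63 to 0.38) for SST, -0.18 (-0.71 to 0.35) for NPY and -0.10 (-0.61 to 0.42) for CORT. Each had an edgeR adjusted p of 0.994. For all 3 genes the highest library was control library 1, and without it the fold changes were 0.09, 0.10 and 0.06. For all 3 genes a change by 1 log2 unit lay outside the interval.

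CCK in PV/Th-like nuclei was at 332, 119 and 199 normalised CPM in OVT73 libraries 1 to 3 and at 203, 134, 171 and 182 in control libraries 1 to 4. The log2 fold change was 0.33 (95% interval -0.38 to 1.05, edgeR adjusted p = 0.930) and became -0.14 without OVT73 library 1. In D1 MSN-like nuclei CCK had the largest fold change of the 19, -1.40, with a 95% interval of -3.34 to 0.53. It rested on 100 UMIs, of which control library 3 gave 44, with 17 of these in 1 nucleus. That library was at 6.74 normalised CPM, and the others lay between 0.370 and 1.60. CCK in this class was 0.808 to 4.11 times the glial level of the same library. SST and NPY in the MSN classes had log2 fold changes between -0.79 and -0.36, at levels close to glia.

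**Figure D4:**
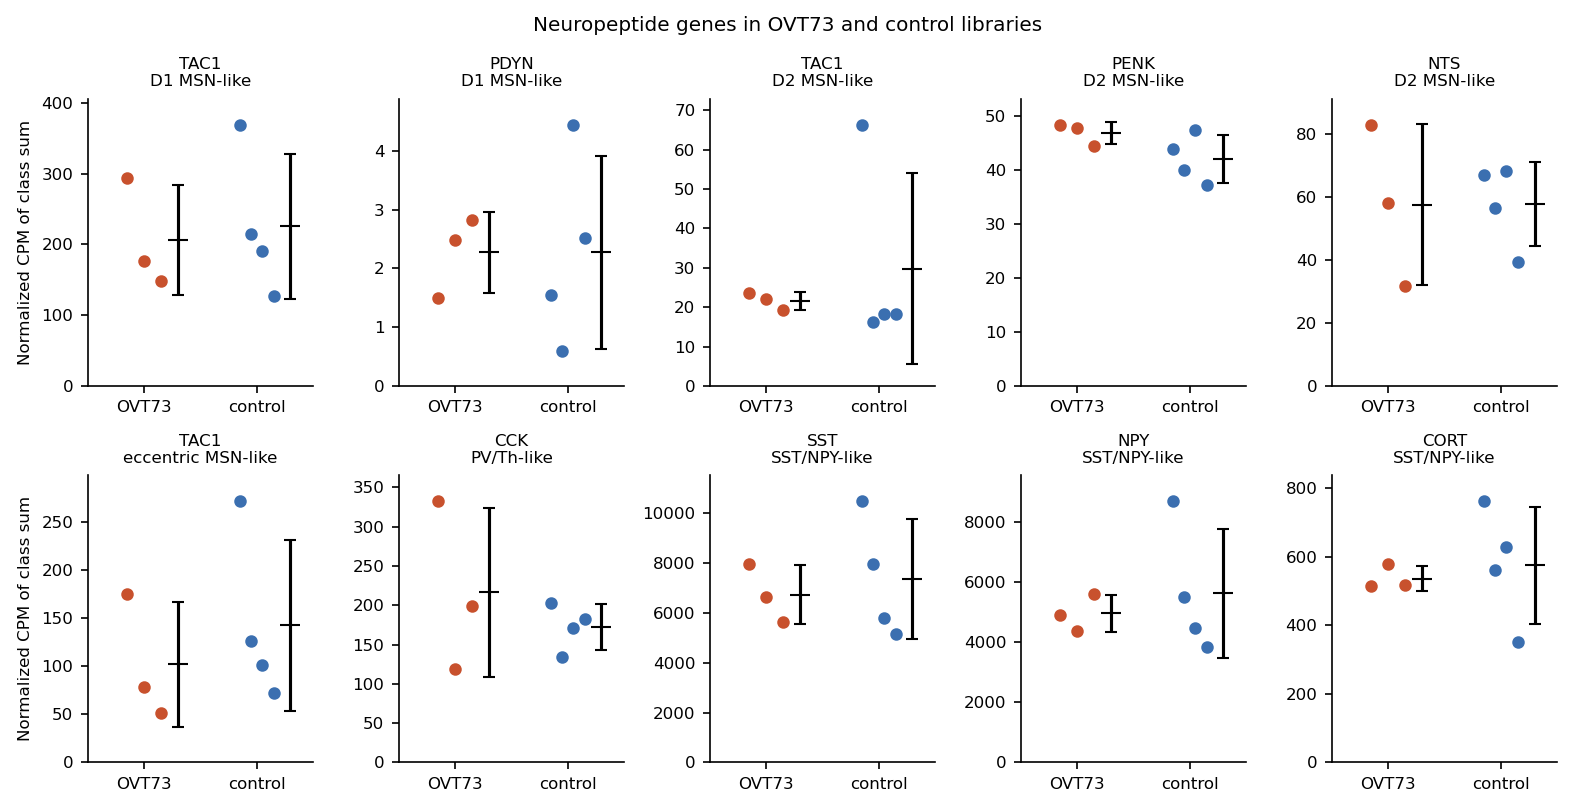
Normalised CPM of the class sum on linear axes from 0, for 10 combinations of gene and neuron class; points are libraries and black bars give the mean ± SD of 3 OVT73 and 4 control libraries. The groups overlapped in every panel, and control library 1, the first control point, was the highest control for TAC1, SST, NPY, CORT and CCK but not for PENK, NTS or PDYN.

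**Figure D5:**
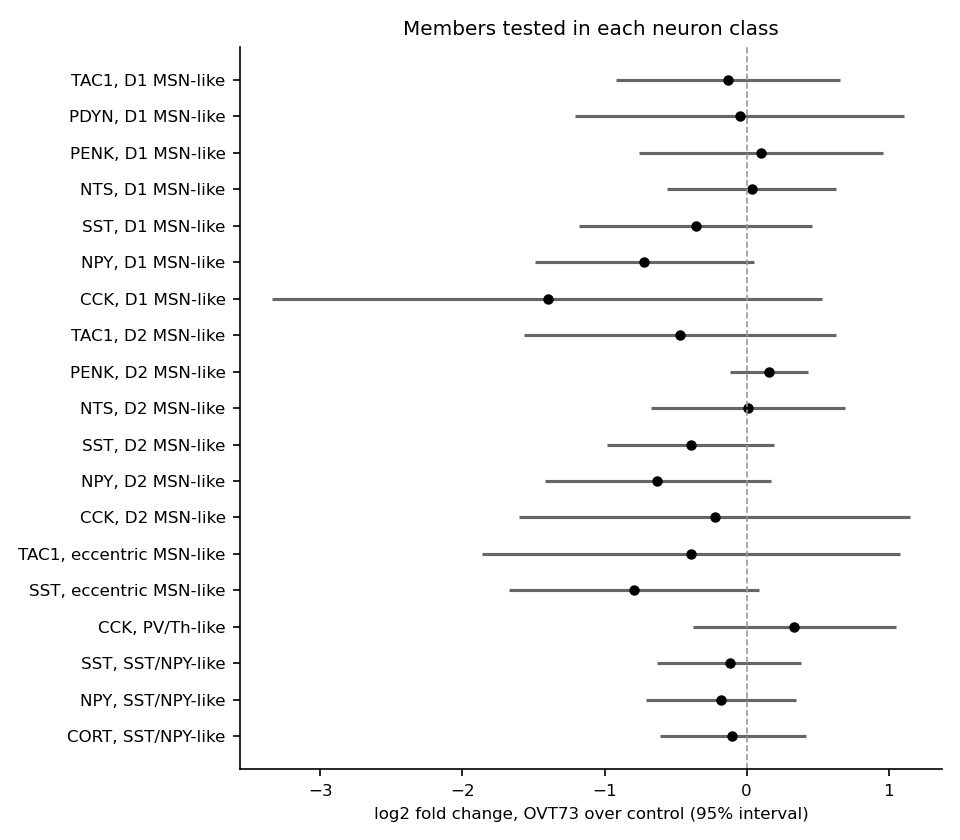
Log2 fold change of OVT73 over control (points) with the 95% interval computed from the edgeR fit (lines) for the 19 tested combinations of member and neuron class. Every interval spans 0, and PENK in D2 MSN-like nuclei has the narrowest.

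The machinery that turns these precursors into peptides was described through a fixed list of 25 genes of prohormone processing and dense-core vesicles, of which 22 were measured. None passed the test in any of the 5 classes, and an unadjusted p under 0.05 was found for 1 gene each in D2, eccentric and PV/Th-like nuclei and 0 in the others. The median log2 fold change of the genes tested was 0.01 in D1 (19 genes), 0.01 in D2 (19) and -0.11 in SST/NPY-like nuclei (17), beside -0.02, -0.03 and -0.00927 for all genes. The 3 genes with the most CPM in D1 MSN-like nuclei were PAM, which amidates peptides, CPE, a carboxypeptidase, and PCSK2, a prohormone convertase. They were at 757, 374 and 334 CPM there and at 807, 378 and 298 CPM in the D2 class. In SST/NPY-like nuclei PAM was at 3340.6 ± 872 CPM (SD, n = 7) and PCSK2 at 433 ± 168 CPM. SCG2, a granin that was itself a marker used for naming this class, was at 3425.8 CPM. PCSK1, a convertase singled out after its values were seen, was at 290 CPM in SST/NPY-like nuclei but at 0.809 and 0.973 CPM in the MSN classes D1 and D2. The 58 cholinergic-like nuclei, with as few as 4 in a library, had 342 ± 154 CPM of CPE and 308 ± 179 CPM of PCSK2. PAM, which was not among the 3 leading genes of this class, was at 17.3 ± 26.3 CPM (SD, n = 7 each).

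Of 19 listed receptors for these peptides 16 were measured, and none passed the test in any class (unadjusted p under 0.05 for 1 gene in each of D1 and D2). The median log2 fold change was 0.11 in the D1 class and -0.04 in the D2 class (9 genes each), beside -0.02 and -0.03 for all genes. In D1 MSN-like nuclei the leading receptors by CPM were SORT1, a neurotensin-binding sorting receptor, at 190 CPM, OPRM1 at 122 and OPRK1, the dynorphin receptor, at 31.3. In D2 MSN-like nuclei they were OPRM1 at 300, SORT1 at 190 and OPRD1, the delta opioid receptor for enkephalin, at 57.4 CPM. OPRD1 was at 6.70 CPM in D1 MSN-like nuclei. TACR1, the substance P receptor, was at 1008.9 ± 130 CPM in cholinergic-like nuclei (SD, n = 7), where OPRM1 was at 156 and SORT1 at 86.0 CPM. In SST/NPY-like nuclei TACR1 was at 530 ± 75.7 CPM, but it was also a marker used to name that class. OPRM1 in D2 MSN-like nuclei was at 345 ± 30.4 normalised CPM in OVT73 (SD, n = 3) and 268 ± 49.7 in control libraries (SD, n = 4), with a log2 fold change of 0.36 (SE 0.145, edgeR adjusted p = 0.927); DESeq2 called 0 genes of any of the lists.

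The remaining 26 genes of other secreted precursors were mostly near 0. No gene of this list reached 20 CPM in D1 MSN-like nuclei, where NUCB2, PTHLH and NXPH1 led with 19.6, 4.86 and 3.65 CPM, and none passed the test in any class (unadjusted p under 0.05 for 1 gene, in PV/Th-like nuclei). In PV/Th-like nuclei NXPH1, which encodes neurexophilin, PTHLH and IGF1 were at 5095.8, 87.3 and 41.8 CPM. PTHLH was a marker that named the class. NXPH1 was listed for both PV/Th-like and SST/NPY-like nuclei and was therefore not used for naming. Among the compartment markers none passed the test either, with an unadjusted p under 0.05 for 2 matrix markers in D1 and 1 in PV/Th-like nuclei and for 1 striosome marker each in D2, eccentric and PV/Th-like nuclei. Their median log2 fold change in D1 MSN-like nuclei was 0.04 for 6 striosome and -0.16 for 6 matrix genes, beside -0.02 for all genes.

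Over 13 named classes the genes whose pattern was most like a member's were other members for PENK, NTS, SST, NPY and CORT, but not for TAC1 or CCK. PDYN stayed under the minimum of 20 CPM in every class and was left out. The measure was Pearson's r of log2(mean CPM + 1), with the pseudocount of 1, among 10276 genes that reached 20 CPM in some class. NTS was closest to PENK and PENK to NTS (r = 0.916), NPY to SST (0.916) and CORT to NPY (0.917). For PENK the next were BAZ1A (0.741) and APPBP2 (0.730), and for NTS a feature without a symbol (ENSOARG00020006616, 0.716) and APPBP2 (0.710). For SST they were CRHBP (0.819) and CHODL (0.806), and CHODL, a marker used for naming, was also among the closest for NPY (0.842) and CORT (0.880). CALB2 was second for CORT (0.902). TAC1 was most like ZSWIM6 (0.805), CHM (0.753) and PEX7 (0.738), and CCK was most like NDUFV1 (0.909), FBXO28 (0.897) and PVALB (0.892). PVALB was a marker used for naming the PV/Th-like class. The 13 classes share libraries and differ in depth, and the values describe these classes only. CPM gives free RNA more weight in shallow nuclei, and its part in these r values was not tested. SST was at 108 CPM in oligodendrocyte-like but 10.4 CPM in D1 MSN-like nuclei. TAC1 was at 102 CPM in microglia-like and 26.5 CPM in D2 MSN-like nuclei. The mural-like class, with 39 nuclei, held 1 CORT UMI and 6 NPY UMIs.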

How the data were processed

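The authors deposited UMI counts per feature and barcode for 7 libraries, made with Cell Ranger 7.0.0 (submitters' processing notes also name STAR 2.7.2a) on a sheep genome with an added human HTT feature. Barcodes with 200 to 7500 genes and at most 5% mitochondrial UMIs were used, and the 4% of each library with the highest scrublet score (1355 nuclei) were removed, since its automatic threshold marked only 129. Variable genes (3000) were chosen in scanpy 1.11.5 without the 8 genes. Their 30 components were corrected for library with a Harmony procedure written for this work. Nuclei were then clustered with igraph 0.11.9 (multilevel method, resolution 1). Likely doublets were still present at clustering and were left out afterwards. The naming rules (at least 3 markers raised by 1 log2 unit, at least 5000 median UMIs for neurons) were set after cluster profiles were seen and before any comparison of groups. UMIs were summed per library and class and tested with edgeR 4.0.16 (filterByExpr, TMM, quasi-likelihood, R 4.3.3); intervals come from its SE. Classes with fewer than 5 nuclei in a library were not fitted. Shares were compared after thinning to 5000 UMIs by exact permutation over 35 choices of libraries, with 0.0286 as the smallest possible p. Intervals on shares are Wilson intervals. Named genes were the 8 members, list genes past the threshold or otherwise the 3 with the most CPM, the 3 genes most like each member, and class markers; exceptions are marked. The members and lists were chosen with earlier results of these data known. Alternatives were DESeq2 1.42.0, no TMM, no filter, each library left out, doublets kept, classes by marker UMIs, and other thinning and detection limits. Listed symbols without a match were not analysed here.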

Additional observations from a re-analysis of the deposited data

Results flagged for a closer look

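TAC1 in D2 MSN-like nuclei was flagged because control library 1, at 66.3 normalised CPM, lay far from the other controls, of which the nearest was at 18.4. The gap was 0.956 of the range of the 4 controls, above the limit of Dixon's test at 95%. In this library 14 of 248 nuclei held 10 or more TAC1 UMIs, and without such nuclei its level was 0.534 UMIs per nucleus. A lower level follows from leaving out nuclei by their TAC1 counts, and the cause of the high value was not tested. CCK in D2 MSN-like nuclei was flagged in control library 3, at 6.04 normalised CPM with the nearest control at 1.45 and a gap of 0.931 of the range. Glial CCK was also highest in this library, at 0.0354 UMIs per nucleus against 0.00349 to 0.0161 in the others, and its part in the result was not tested. These were 2 of 19 groups of control libraries, and chance flags about 1 in 20.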

How the results depend on the processing

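None of the 10 fold changes recomputed under the alternatives was called in any of them. Of the log2 fold changes in the main class of each gene, PENK in D2 MSN-like nuclei kept its direction throughout, and those below changed sign; the cause was not tested. With classes set by marker UMIs, PDYN in D1 was 0.19, TAC1 in D2 0.03 and NTS in D2 -0.02. Without TMM factors PENK in D1 was -0.02 and NTS in D2 -0.10, and the median of all genes, -0.02 (D1) and -0.03 (D2) with them, was -0.13 in both classes. With doublets kept NTS was -0.00778, and without a filter CORT was 0.00556. Leaving out each library gave ranges of -0.49 to 0.22 for TAC1, -0.34 to 0.45 for PDYN and -0.17 to 0.34 for PENK in D1, of -0.66 to 0.30 for TAC1 and -0.35 to 0.30 for NTS in D2, of -0.27 to 0.09 for SST, -0.33 to 0.10 for NPY and -0.28 to 0.06 for CORT, and of -0.14 to 0.64 for CCK in PV/Th-like nuclei. Genes called numbered 2 in D1 and 4 in D2 by DESeq2. Without a filter they numbered 1 in D2, 43 in eccentric, 21 in PV/Th-like and 8 in SST/NPY-like nuclei, where more genes with few counts are tested. The 1 gene called in eccentric nuclei was lost (0) without TMM factors and without any 1 library, and such fits called 0 to 1 genes in PV/Th-like and 0 to 3 in SST/NPY-like nuclei. Differences in shares of nuclei, OVT73 minus control, changed sign without thinning for TAC1 in D1 (1.24 points), PDYN (0.491), PENK (1.28) and NTS (0.0383), at 2000 UMIs for PENK (0.32), and at a limit of 2 UMIs for NTS (0.03). Without single libraries they were -11.6 to 0.00256 for TAC1 and -0.801 to 0.63 for PDYN in D1, -3.4 to 1.47 for NTS and -2.01 to 0.889 for TAC1 in D2, and -5.82 to 8.68 for CCK in PV/Th-like nuclei. The TAC1 level of eccentric MSN-like nuclei was 4.79 UMIs per nucleus with classes by marker UMIs. That class was a different set of nuclei, with 197 from the eccentric MSN-like cluster and 167 from the D1 MSN-like cluster. PENK and NTS exceeded the expected overlap by 2.01 times at 2000 UMIs and 4.61 times at a limit of 2 UMIs. The TAC1-rich nuclei, the larger D2 cluster and PDYN called after thinning were alternatives chosen after seeing the data. No paired analysis was possible because replicate numbers only follow the order of deposit and pair no libraries. With 7 libraries and few interneurons, precision was limited by their number.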

Other observations

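A cluster of 382 nuclei that was left unnamed, led by ACHE, CHGB and SCG2 at a median of 1708.5 UMIs, held 8.28% of SST and 10.1% of NPY UMIs. In it SST and NPY averaged 4.66 and 3.64 UMIs per nucleus. The 20 nuclei with the most UMIs of each gene gave 87.8% of its SST and 92.5% of its NPY. Control library 2 was the highest, with 20.2 SST and 16.3 NPY UMIs per nucleus, and the other libraries lay between 1.08 and 4.87 for SST and between 0.806 and 4.95 for NPY.

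OPRM1, the receptor of enkephalin and other opioid peptides, was at 996 ± 347 CPM in microglia-like nuclei (SD, n = 7), against 300 CPM in D2 and 122 CPM in D1 MSN-like nuclei. It was singled out after its values were seen. The median depth was 1425 UMIs in microglia-like, 23420.5 in D2 and 22223 in D1 MSN-like nuclei. The order by CPM therefore need not hold for UMIs per nucleus, which were not compared for this gene.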
